A study of Mus musculus with 39 samples.

Results

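The 10 genes described here belong to the tight junction: 8 claudins (Cldn1, Cldn2, Cldn3, Cldn4, Cldn6, Cldn7, Cldn12 and Cldn23), occludin (Ocln) and zonula occludens 1 (Tjp1). They were measured in tumour cells sorted from mouse pancreatic tumours. They were selected by symbol from the 39017 genes of a table of raw RNA sequencing counts, with the comparison of T cell high and T cell low clones already in view. Their differences between these 2 classes are therefore given as a description, with no test. Tumour cells carrying yellow fluorescent protein (YFP) were grown for 3 weeks under the skin of untreated C57BL/6 mice and sorted. The table held 39 libraries of 20 tumour cell clones from 13 parent lines: 14 libraries of 6 T cell high clones, 4 of 2 intermediate clones, 18 of 9 T cell low clones and 3 of 3 clones without a class, which entered no comparison. A clone's name joins its parent line and its own number (yfp_6499c4). The labels give neither the genotype of the parent lines nor whether the libraries of a clone came from separate mice. P-values from counts summed per clone measure the spread between clones, while those from single libraries may in part measure technical spread. The fits between classes took clones as independent and did not pair clones of a parent line. Yet the 9 low clones came from 7 parent lines, and some lines gave clones to different classes. The p-values and SEs of class differences do not account for this.

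Claudins are small proteins with 4 membrane-spanning stretches that meet across neighbouring epithelial cells and seal, or selectively open, the path between them. Occludin spans the same strands, and ZO-1, the product of Tjp1, is the scaffold that ties claudin tails to actin. Claudin 2 forms a pore for cations and water, whereas claudins 1, 3, 4 and 7 are mostly counted as sealing claudins. Pancreatic ductal epithelium, and the carcinoma named after it, normally carries such junctions.

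The libraries were of 2 kinds. In 20 heart-free libraries of 17 clones, the heart transcripts Myh6, Myh7, Myl2 and Mb summed to at most 0.235 CPM, a gene's counts scaled to the library total. In 19 heart-bearing libraries of 18 clones they summed to between 152 and 4893 CPM. Liver transcripts moved with them: the summed level of 6 liver markers was 8877 to 15890 CPM in heart-bearing libraries of high clones and 481 to 15100 CPM in those of low clones, against at most 37.3 and 241 CPM in the heart-free libraries of high and low clones. Of 16 heart-bearing libraries whose clone also had a heart-free one, 15 correlated better with a heart-bearing library of another clone than with their own clone's heart-free library (Pearson's r of log2 CPM over 11635 genes). Among the 7 libraries above 4000 CPM, of 4 high and 3 low clones, r was 0.985 to 0.996, while r with the best heart-free library of their own clone was 0.691 to 0.783. Ddx3y, a Y-linked gene, was at 0 in the heart-free libraries of the clones of 9 heart-bearing libraries and at 4.55 to 45.7 CPM in those 9. Most heart-bearing libraries thus resembled those of other clones more than their own clone's heart-free library. The reason was not tested, and each result below is given for the heart-free libraries first. These held 26866065 to 41683806 counts each, so that 1 count was well under 0.1 CPM.

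In the heart-free libraries the 10 genes fell into steady and variable ones. Cldn2, Tjp1 and Cldn12 differed between the 17 clones by 2.36, 2.07 and 2.73 times from lowest to highest. Cldn4 and Cldn7 differed by 170 and 153 times, and Cldn6 by 972 times over a lowest clone with 10 counts. Cldn3 ran from 0.0257 CPM, a single count, to 171 CPM, and its fold is therefore not given. Ocln and Cldn23 lay between, at 9.89 and 14.6 times. Repeat libraries of a clone were closer than that: the 3 heart-free libraries of yfp_2838c3 differed by 1.13 times in Tjp1, 2.63 times in Cldn7 and 5.74 times in Cldn4, and the 2 of yfp_2699c4 by 1.10, 1.79 and 1.53 times.

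Per kilobase of exon, Cldn2 had the highest median level, 107 CPM per kilobase, followed by Cldn6 with 52.7, Tjp1 with 27.4, Cldn12 with 17.4, Cldn7 with 13.3, Cldn4 with 9.17, Ocln with 6.40, Cldn3 with 2.32, Cldn23 with 1.29 and Cldn1 with 0.0114. The order of neighbours among the variable genes depended on the clone, since their ranges overlapped almost fully: Cldn6 spanned 0.149 to 145 and Cldn3 0.0204 to 136 CPM per kilobase. The pore-forming claudin 2 was thus the most abundant of these transcripts by median, and claudin 1 was close to absent.

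**Figure D1:**
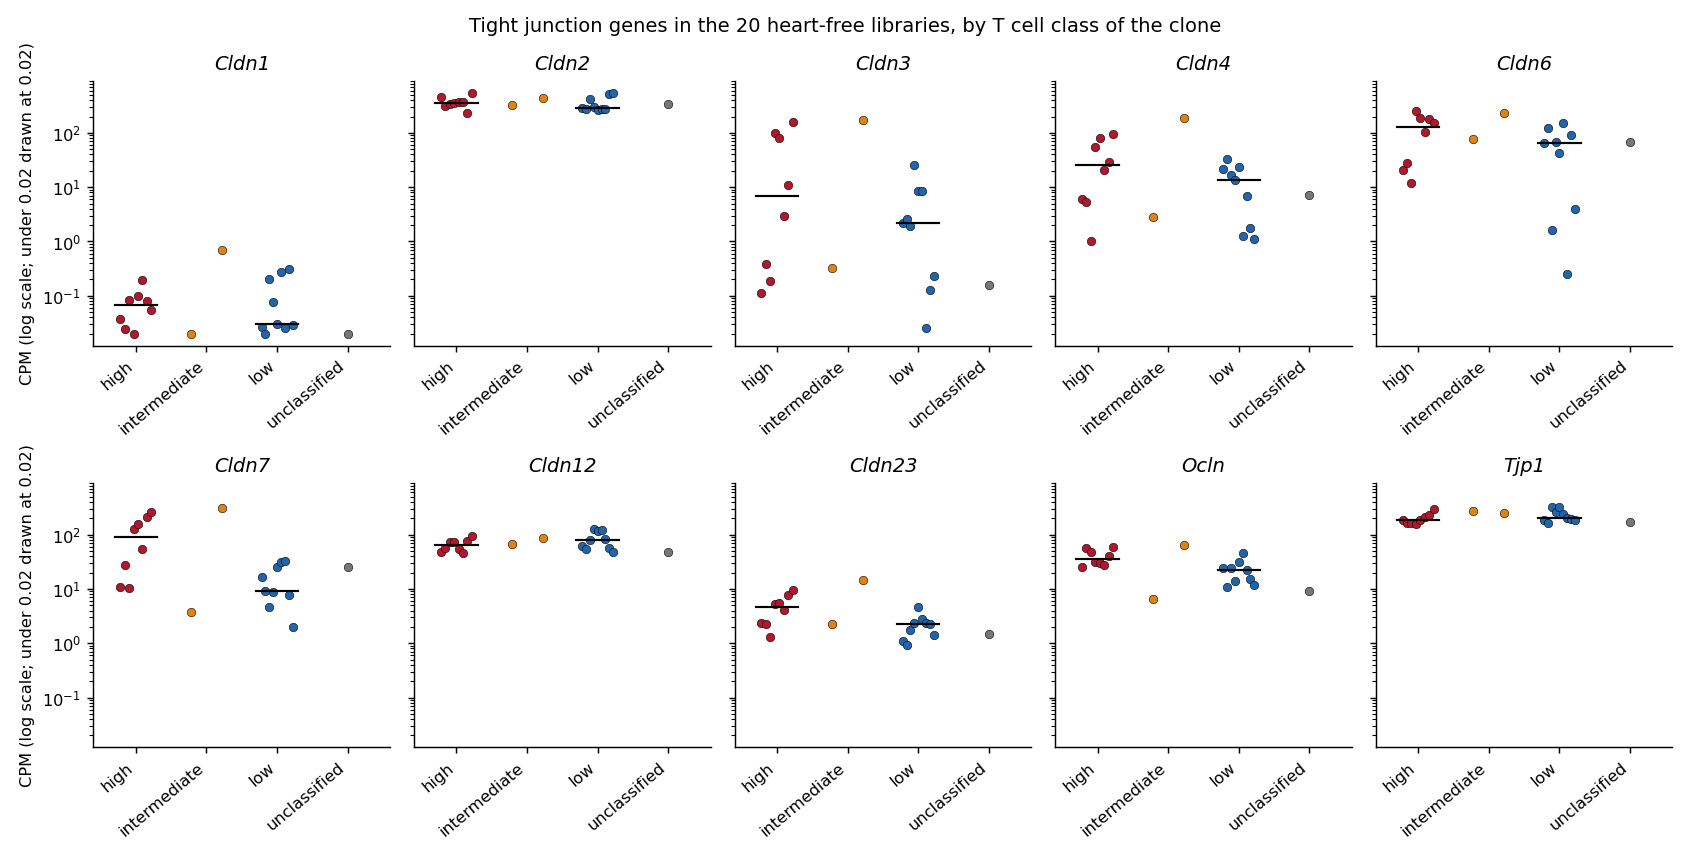
Level of each gene (CPM, log axis) in the 20 heart-free libraries, 1 point a library, by the T cell class of the clone, with a line at the median of classes with more than 2 libraries; zero counts are drawn at the bottom of the axis. Cldn2, Tjp1 and Cldn12 form tight bands in every class, Cldn7 is mostly higher in high than in low clones, and Cldn3, Cldn4 and Cldn6 spread widely within each class.

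Cldn7 (chr11:69964779-69967885, GRCm38, + strand), which binds the adhesion protein Epcam, separated the classes most clearly. Over clones in heart-free libraries it had a lowest value of 17.2, a median of 143 and a highest of 263 CPM in the 6 high clones, against 1.99, 10.9 and 32.7 CPM in the 8 low clones. Of the 6 high clones, 5 were above every low clone, and the high clone yfp_2838c3 lay within the range of low clones. The mean was 138 ± 92.0 CPM in high clones and 15.7 ± 12.3 CPM in low clones (SD, n = 6 and 8). The fitted log2 difference, high minus low, was 3.15 ± 0.64 (SE) in heart-free libraries, 1.17 ± 0.33 in heart-bearing libraries and 2.32 ± 0.40 over all libraries. In heart-bearing libraries Cldn7 had a median of 44.2 CPM in high and 22.95 CPM in low clones. The heart sum of these libraries had a median of 4656 CPM for high and 1954 CPM for low clones. Its part in the class differences of heart-bearing and of all libraries, here and below, was not tested.

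Cldn3 (chr5:134986214-134987472) and Cldn4 (chr5:134945119-134946934) bind the same bacterial enterotoxin, and lie on opposite strands with 39280 bases between their starts. Cldn3 had a lowest value of 0.247, a median of 46.0 and a highest of 159 CPM in high clones, against 0.0257, 2.17 and 25.3 CPM in low clones. Of the 6 high clones, 3 (yfp_6499c4, yfp_6555c3 and yfp_7160c2) were above every low clone, and the classes otherwise overlapped. Cldn4 had 3.97, 42.4 and 97.0 CPM in high clones, against 1.11, 10.3 and 27.1 CPM in low clones, and 4 of the 6 high clones were above every low clone. The log2 differences in heart-free libraries were 3.35 ± 1.30 for Cldn3 and 2.06 ± 0.77 for Cldn4. In heart-bearing libraries they were 0.99 ± 0.53 and 1.26 ± 0.48. There Cldn3 had a median of 91.6 CPM in high and 46.95 CPM in low clones, and Cldn4 one of 38.4 CPM in high and 17.45 CPM in low clones. The annotation places the antisense gene Wbscr25 over Cldn3. The strand setting of the counting is not known, so their reads cannot be told apart, although Wbscr25 itself was listed at no more than 0.657 CPM in any heart-free library.

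The stretches just before the starts of these 3 claudins are shown as examples of genes that varied together across clones. They are the 250 bases before the RefSeq start on GRCm38.p6, 5′ to 3′ on the strand of the gene, with CACCTG or its reverse complement CAGGTG, the E-box bound by Zeb and Snail proteins, in capitals. Ocln, which also varied with them, is shown beside them. Cldn6 varied with them too, but only the matches in its window are given.
Cldn3, chr5:134985964-134986213, + strand: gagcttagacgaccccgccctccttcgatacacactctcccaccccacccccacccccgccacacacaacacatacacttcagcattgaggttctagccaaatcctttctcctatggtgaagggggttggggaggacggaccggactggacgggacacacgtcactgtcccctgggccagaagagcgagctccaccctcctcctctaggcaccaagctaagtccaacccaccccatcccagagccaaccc
Cldn4, chr5:134946935-134947184, - strand: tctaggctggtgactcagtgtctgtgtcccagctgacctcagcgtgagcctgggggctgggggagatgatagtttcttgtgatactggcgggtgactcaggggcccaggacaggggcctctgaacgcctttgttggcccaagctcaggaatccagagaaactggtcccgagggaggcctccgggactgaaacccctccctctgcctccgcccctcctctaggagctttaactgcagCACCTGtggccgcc
Cldn7, chr11:69964529-69964778, + strand: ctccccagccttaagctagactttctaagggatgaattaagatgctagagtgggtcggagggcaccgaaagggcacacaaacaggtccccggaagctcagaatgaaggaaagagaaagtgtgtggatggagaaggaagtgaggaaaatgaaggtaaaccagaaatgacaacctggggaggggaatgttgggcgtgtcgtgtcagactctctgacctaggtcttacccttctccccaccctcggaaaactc
Ocln, chr13:100552719-100552968, - strand: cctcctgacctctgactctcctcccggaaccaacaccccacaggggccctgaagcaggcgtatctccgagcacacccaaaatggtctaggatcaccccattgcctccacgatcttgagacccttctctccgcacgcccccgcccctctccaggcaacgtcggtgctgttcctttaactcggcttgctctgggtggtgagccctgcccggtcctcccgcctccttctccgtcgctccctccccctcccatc
The E-box stood in the windows of Cldn4, starting 14 bases before the start, and of Cldn6, starting 93 bases before it, and in none of the other 7 windows found. It occurred in 17.3% of the 32544 distinct promoter windows of that length. A GC box (GGGCGG or CCGCCC) stood in the windows of Cldn1, Cldn3, Cldn4, Cldn6, Ocln and Tjp1, against 33.0% of all windows. A TATA box (TATAAA or TTTATA) stood only in that of Cldn2 among these 9, against 12.3%, and the grainyhead motif AACCNGTT in none of the 9, against 1.79%. Cldn23 has no entry. The Tjp1 window lies before a RefSeq start inside the gene model given for Tjp1, 156537 bases from the annotated start of that model. These matches are descriptions of letters and not of binding.

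Cldn6 (chr17:23679249-23682446, + strand), a claudin of embryonic epithelia that is normally silent in most adult tissues, was plentiful in most clones. It had a lowest value of 20.7, a median of 167 and a highest of 250 CPM in high clones, against 0.257, 55.7 and 154 CPM in low clones. In Cldn6, 3 high clones were above every low clone and 3 low clones below every high clone. The log2 difference was 1.41 ± 0.94 in heart-free and 0.62 ± 0.47 in heart-bearing libraries, each within 2 SE of 0. Cldn23, a claudin described in surface epithelium of the gut, was scarce at 1.93, 5.34 and 9.46 CPM in high clones, against 1.01, 2.29 and 4.70 CPM in low clones. Its log2 difference in heart-free libraries was 1.29 ± 0.36, with 4 high clones above every low clone. For Ocln (chr13:100496507-100552718, - strand) the values were 27.0, 35.5 and 58.9 CPM in high clones, against 11.8, 20.3 and 46.8 CPM in low clones, with a log2 difference of 0.76 ± 0.28. In all, 6 of the 8 low clones were below every high clone in Ocln, but only 1 high clone was above every low clone.

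The steady genes overlapped between the classes, although 3 of the 8 low clones in Cldn12 and 2 in Tjp1 were above every high clone, and 1 high clone in Cldn2 was above every low clone. Cldn2 averaged 371 ± 99.5 CPM in high clones and 358 ± 115 CPM in low clones, with a log2 difference of 0.05 ± 0.23 (SD, n = 6 and 8; SE of the fit). Tjp1 (chr7:65296165-65527781, - strand) averaged 208 ± 52.8 CPM in high clones and 237 ± 58.9 CPM in low clones (log2 difference -0.18 ± 0.18). For Cldn12, a claudin without the usual tail that binds ZO-1, the means were 67.5 ± 17.03 CPM in high clones and 85.5 ± 31.6 CPM in low clones (log2 difference -0.33 ± 0.23). Each of the 3 differences was smaller than 1.5 times its SE. Cldn1 was at or under 0.687 CPM in all 20 heart-free libraries, with 76 counts in all of them together. Of these, 4 held no Cldn1 count, which at 3 counts allows a level of up to 0.0749 to 0.0871 CPM, and no class difference in Cldn1 was detectable at this depth. In bulk libraries, fewer cells with a transcript and less of it per cell cannot be told apart.

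Across all genes tested in heart-free libraries, 0% of 15614 passed an adjusted p of 0.05 between high and low clones (edgeR's quasi-likelihood test with Benjamini-Hochberg adjustment), and 2093 were under an unadjusted p of 0.05. Over all libraries the share was likewise 0% of 18529, with 2175 under an unadjusted p of 0.05. The median log2 difference of the 9 members tested in heart-free libraries was 1.29, with 7 of 9 positive, beside a median of -0.00 over all genes. As the members were chosen with this contrast in view, this is a description and no test of them as a set. None of the 10 members separated the classes completely, and of 11058 genes averaging at least 5 CPM, 18 were higher and 20 lower in every high clone than in every low clone. Markers of other cells overlapped between the heart-free libraries of the classes but had different medians. The summed level of 5 macrophage markers was 71.0 to 2487 CPM, with a median of 764, in high libraries and 47.3 to 1356 CPM, with a median of 204, in low libraries. The 5 fibroblast markers summed to 70.1 to 12630 CPM, with a median of 371, in high libraries. In low libraries they summed to 147 to 2728 CPM, with a higher median of 758. The 5 epithelial markers had medians of 7483 CPM in high and 7083 CPM in low libraries. The part of these cells in the class differences was not tested.

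**Figure D2:**
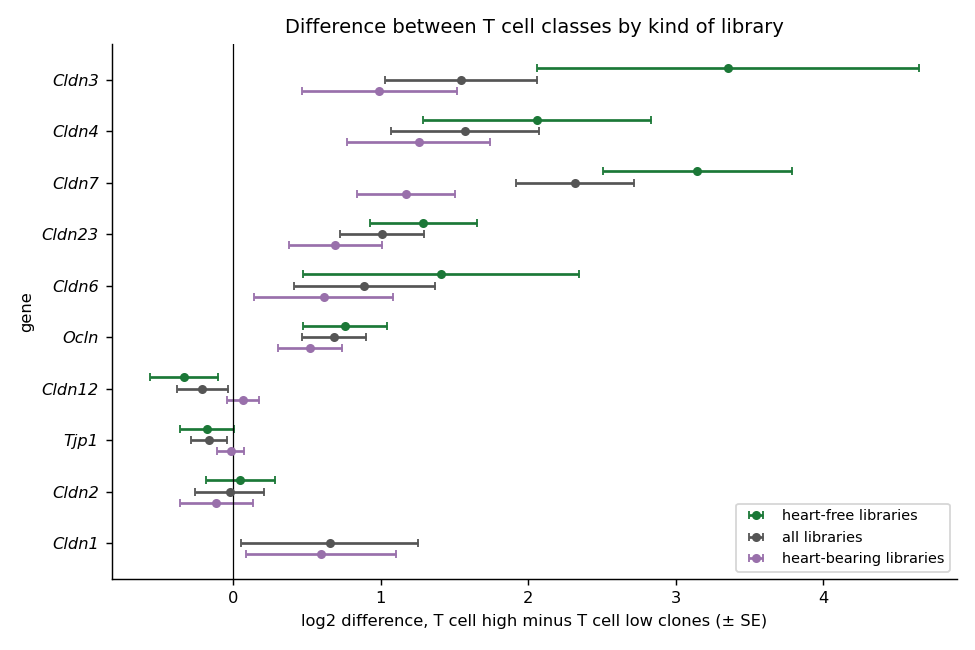
Log2 difference, T cell high minus T cell low clones, with its SE from the edgeR fit (horizontal axis) for each gene, in heart-free, all and heart-bearing libraries; Cldn1 was too low to enter the heart-free fit. For Cldn3, Cldn4, Cldn7, Cldn23, Cldn6 and Ocln the heart-free difference is the largest of the 3 and the heart-bearing one the smallest, while Tjp1, Cldn12 and Cldn2 stay near 0.

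In 2 parent lines a clone of each class had a heart-free library. In one, Cldn6 was at 250 CPM in the high clone yfp_6499c4 and at 0.257 CPM, 10 counts, in the low clone yfp_6499c3. Cldn3 had 3398 counts in yfp_6499c4 and 1 count in yfp_6499c3. Cldn4 was 7.90 times and Cldn7 3.94 times as high in yfp_6499c4, while Cldn2, Cldn12, Ocln and Tjp1 lay between 0.757 and 1.38 times. In the other line, the high clone yfp_6556c4 had 54.5 CPM of Cldn7 and 21.2 CPM of Cldn4, against 7.63 and 1.80 CPM in the low clone yfp_6556c3. Cldn3 was low in both, at 2.92 CPM in yfp_6556c4 and 0.126 CPM in yfp_6556c3, and Cldn6 hardly differed, at 105 and 90.7 CPM. Cldn6 was thus nearly shut off in one low sister clone and not in the other. Each of these clones had 1 heart-free library, so the sister differences have no replicate check.

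The 2 intermediate clones lay at opposite ends. Clone yfp_7160c5 had the highest Cldn7 of all heart-free libraries, 305 CPM, and the highest Cldn3, 171 CPM, and Cldn4, 188 CPM. Its sister, the high clone yfp_7160c2, had 263, 159 and 97.0 CPM. The other intermediate clone, yfp_6422c5, had 3.70 CPM of Cldn7, 0.325 CPM of Cldn3 and 2.85 CPM of Cldn4, as low as low clones. In the fit over all libraries of the 17 classed clones, 1 of 20003 genes (0.005%) passed between intermediate and low clones, H2-M2, a gene of the H2 family, whose count is uncertain where relatives share reads, and 0% passed between intermediate and high clones, with 1008 and 413 genes under an unadjusted p of 0.05. H2-M2 was named after its value was seen. No member passed in either comparison, both of which share clones with the contrast in view when the members were chosen. Cldn7 had the smallest adjusted p, 0.368, at a log2 difference of 2.56 ± 0.69, intermediate minus low (edgeR). Without yfp_6422c5, the log2 difference, intermediate minus low, was 3.51 for Cldn7 and 2.31 for Cldn23. Without yfp_7160c5, it was -1.29 for Cldn7 and 0.05 for Cldn23. Each of these fits held a lone intermediate clone, assumed to vary like the others, so only the differences are given.

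Among the 17 clones with heart-free libraries, 6 of the genes varied together. Spearman's rho was 0.85 between Cldn7 and Cldn23, 0.80 between Cldn3 and Cldn23, 0.77 between Cldn3 and Cldn4 as well as between Cldn3 and Cldn6, and 0.76 between Cldn4 and Cldn7 as well as between Cldn7 and Ocln. Its lowest value among Cldn3, Cldn4, Cldn6, Cldn7, Cldn23 and Ocln was 0.52, between Cldn6 and Ocln. Cldn12 went with Tjp1 (rho 0.63), and Cldn2 followed none, its highest rho being 0.07. These values describe 17 clones from 12 parent lines and carry no p. The 6 genes are also the members with the largest high minus low differences, and rho was taken over clones of all classes together. The part of the class difference in rho was not tested. Without the 2 clones farthest from the median of a pair's first gene, rho among the 6 ran from 0.36 (Cldn4 and Ocln) to 0.80 (Cldn7 and Cldn23). Clones of a line are not independent. With 1 value per line, rho was 0.83 for Cldn7 and Cldn23, 0.69 for Cldn3 and Cldn4, and 0.71 for Cldn4 and Cldn7, but 0.38 for Cldn4 and Ocln, which had 0.54 over clones. Cldn12 then had rho of 0.64 with Cldn3, 0.61 with Ocln and 0.62 with Tjp1, so the grouping of the 6 genes was less clear per line.

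**Figure D3:**
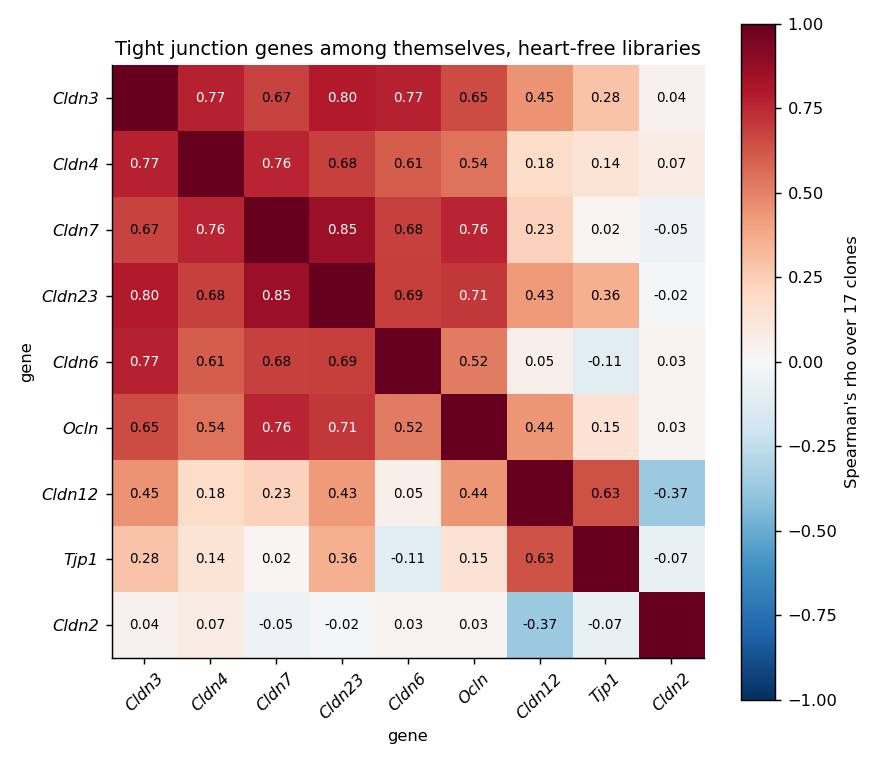
Spearman's rho of log2 CPM between pairs of genes over the 17 clones with heart-free libraries (colour and numbers). Cldn3, Cldn4, Cldn7, Cldn23, Cldn6 and Ocln have rho from 0.52 to 0.85 with each other, while Cldn2 is near 0 with all but Cldn12, where rho is -0.37.

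The genes most like each member, out of 10606 averaging at least 5 CPM, are named here. For Cldn7 they were Mgat4a, a glycosyltransferase (rho 0.97), Ap1m2, the epithelial subunit of the AP-1 sorting complex (0.94), and Tmem8 (0.93). Ap1m2 ran from a level of 0 to 49.7 CPM over these clones, Mgat4a from 6.04 to 212 CPM. For Cldn3 they were Nepn (0.89), the Cldn7 partner Epcam (0.89) and the junction membrane protein Marveld3 (0.88). Epcam ranged from 12.7 to 1471 CPM. Ocln was most like Fxyd3, a regulator of the sodium pump (0.92), Liph, a lipase (0.90), and Tjp3, the scaffold ZO-3 (0.90). Cldn4 was most like Ckb, the brain-type creatine kinase (0.94), and Kctd5 (0.91) was also among its likest genes. For the other members the likest genes were Zfp518a, Poc1b and Nfe2l3 for Cldn6, Tdrd3, Fam149b and Rbmx for Cldn2, Sppl2a, Caskin2 and Med23 for Cldn12, and Amer2, Lrrk2 and Ptpn13 for Tjp1, with rho from 0.80 to 0.94. Among so many genes and 17 clones the highest rho is high for any gene, so these are descriptions.

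None of the other tight junction genes passed between high and low clones, in heart-free libraries or over all of them. As 0% of all 15614 and 18529 genes tested passed there, this says nothing particular about these lists. In heart-free libraries these were 0 of 5 tested other claudins, 0 of 10 other membrane proteins, 0 of 24 plaque proteins, 0 of 5 Epcam partners and proteases, 0 of 9 activators and 0 of 6 repressors of junction genes (edgeR). The partners and proteases had the highest median log2 difference, 1.64, with 5 of 5 positive, beside -0.00 over all genes. Like the members, the lists were chosen with earlier results of these data known, so these medians are descriptions. St14, the protease matriptase that cleaves Epcam, had a median of 57.8 CPM in high clones and 3.24 CPM in low clones (log2 difference 3.06 ± 0.94, adjusted p = 0.249). Its inhibitor Spint1 had 31.3 CPM in high and 5.01 CPM in low clones (2.42 ± 0.49, adjusted p = 0.148). Epcam itself had a median of 433 CPM in high and 58.9 CPM in low clones (1.64 ± 0.80, adjusted p = 0.383).

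Prkcz, an atypical protein kinase C of cell polarity, had 15.3 CPM in high and 1.57 CPM in low clones by median (2.44 ± 0.85, adjusted p = 0.272). Its relative Prkci ran the other way, with 102 CPM in high and 148 CPM in low clones (-0.54 ± 0.23, adjusted p = 0.348), as did Arhgef2, an exchange factor held at tight junctions (-0.39 ± 0.15, adjusted p = 0.324). Marveld3 had a log2 difference of 1.39 ± 0.50 and Marveld2, tricellulin, of 0.58 ± 0.26 (adjusted p = 0.282 and 0.361). The membrane proteins Cxadr and Ildr2 had differences of -0.26 ± 0.19 and -1.58 ± 0.93, and Tjp3 one of 0.54 ± 0.29. Cldn18, the claudin of stomach, ranged from 0.426 to 295 CPM in high clones and from 0.362 to 557 CPM in low clones, and Cldn25 from 55.5 to 67.1 and from 47.0 to 116 CPM. Neither separated the classes.

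Among regulators of junction genes, Klf5 had 103.5 to 151 CPM in the 6 high clones and 54.4 to 102.0 CPM in the 8 low clones. The classes thus narrowly missed overlapping, as in 18 of 11058 genes averaging at least 5 CPM that were higher in every high clone. The log2 difference of Klf5 was 0.66 ± 0.15 (adjusted p = 0.148, edgeR). Esrp1, an epithelial splicing factor, had a median of 5.45 CPM in high and 0.823 CPM in low clones (2.29 ± 1.23, adjusted p = 0.426), Esrp2 46.7 and 53.1 CPM, and Hnf4a 313 and 293 CPM. Grhl2, known to activate Cldn4 in other mouse epithelia, was at most 0.913 CPM in high and 1.35 CPM in low clones, and Ovol2 at most 3.76 CPM in high and 0.598 CPM in low clones. In the intermediate clones Grhl2 was at 0.0749 and 13.6 CPM and Ovol2 at 0.125 and 7.02 CPM. The higher values were those of yfp_7160c5. The repressors Zeb1 and Zeb2 had medians of 44.3 and 33.2 CPM in high clones, against 54.8 and 26.4 CPM in low clones (log2 differences -0.34 ± 0.21 and 0.13 ± 0.35). Snai1 and Twist1 differed by -0.70 ± 0.81 and 1.39 ± 1.01. Cdh1, the adherens junction cadherin, was high in all clones, with 718 to 1247 CPM in high and 458 to 1180 CPM in low clones.

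Heart-bearing and heart-free libraries of the same clone were then compared in 15 clones, with 16 heart-bearing and 18 heart-free libraries and the clone as a block. Of 16460 genes tested, 33.4% were higher and 26.3% lower in heart-bearing libraries, and 3 of the 10 members were higher and 1 lower (edgeR's quasi-likelihood test, adjusted p under 0.05). Levels in this comparison are given per clone. Cldn1 was at 0.289 to 11.46 CPM, with a median of 8.28, in heart-bearing libraries and at 0 to 0.687 CPM in heart-free libraries. It was higher in the heart-bearing libraries of 15 of 15 clones (log2 difference 6.27 ± 0.47, adjusted p = 5.28e-10). Cldn3 had a median of 76.9 CPM in heart-bearing and 2.92 CPM in heart-free libraries, higher in 12 of 15 clones (3.95 ± 0.70, adjusted p = 6.44e-05). In Cldn6 the medians were 200 and 92.3 CPM, and 14 of 15 clones were higher in heart-bearing libraries (1.35 ± 0.41, adjusted p = 0.00775). Cldn23 was lower in 13 of 15 clones (-0.49 ± 0.19, adjusted p = 0.0304).

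For Cldn4 and Cldn7 the sign went with the clone. Cldn4 was higher in heart-bearing libraries in 6 of 7 low and 3 of 6 high clones, and Cldn7 in 5 of 7 low and 1 of 6 high clones, and neither passed (0.75 ± 0.36, adjusted p = 0.0783, and 0.04 ± 0.34, adjusted p = 0.922). Cldn2, Cldn12, Ocln and Tjp1 did not pass either, with log2 differences of -0.06 ± 0.08, 0.07 ± 0.08, -0.08 ± 0.17 and -0.14 ± 0.08. Without a clone block, Cldn3 and Cldn6 had smaller differences and did not pass (1.12, adjusted p = 0.255, and 0.77, adjusted p = 0.207). Cldn23 had a similar one that did not pass (-0.58, adjusted p = 0.159). Without the 7 libraries above 4000 CPM of heart transcripts, 9 clones remained and Cldn1 (5.80 ± 0.55, adjusted p = 3.61e-06), Cldn3 (4.46 ± 0.90, 0.00158) and Cldn6 (1.30 ± 0.44, 0.0297) still passed, while Cldn23 did not (adjusted p = 0.0752).

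**Figure D4:**
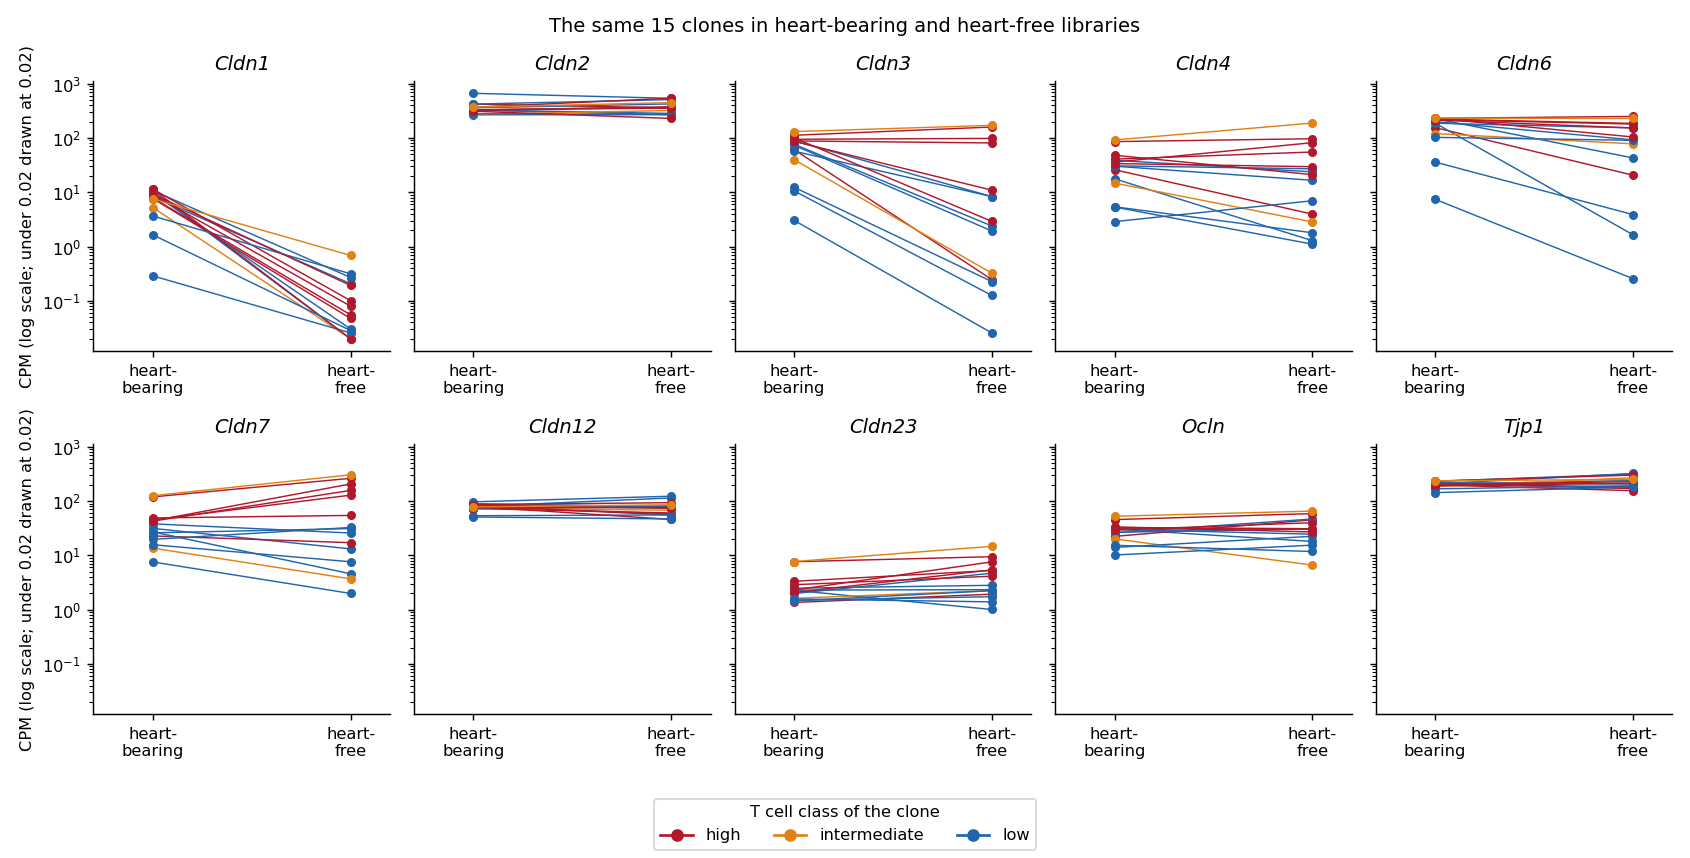
Level of each gene (CPM, log axis) in the heart-bearing (left) and heart-free (right) libraries of 15 clones, 1 line a clone, coloured by T cell class; zero counts are drawn at the bottom of the axis. Cldn1 is higher in the heart-bearing libraries of 15 of 15 clones, and the clones' values of Cldn3, Cldn6 and Cldn7 lie closer together there than in heart-free libraries.

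In the 7 libraries with more than 4000 CPM of heart transcripts the variable genes hardly varied. Cldn6 ran from 188 to 232 CPM, Cldn3 from 73.8 to 100.7 CPM, Cldn7 from 27.1 to 48.9 CPM, Cldn4 from 30.3 to 48.0 CPM and Cldn1 from 8.28 to 12.02 CPM, although these were libraries of 7 clones of both classes. The ratio of highest to lowest was 1.24 for Cldn6, 1.37 for Cldn3, 1.80 for Cldn7 and 1.59 for Cldn4, against 151.0, 50.6, 45.2 and 4.93 over the heart-free libraries of the same 7 clones. Among all 19 heart-bearing libraries, Cldn6 followed the heart sum most closely (Pearson's r = 0.865, permutation p = 1e-05, the smallest that 100000 permutations can give, adjusted 0.0001 over 10 genes). Spearman's rho was 0.840 (permutation p = 4e-05, adjusted 0.0004), and r was 0.820 without the 2 libraries farthest from the median heart sum.

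Cldn3 (r = 0.767, adjusted permutation p = 0.0007, and rho 0.739), Cldn12 (r = 0.623, adjusted 0.0122, and rho 0.677) and Cldn1 (r = 0.586, adjusted permutation p = 0.0173, and rho 0.732) also passed, with r of 0.713, 0.668 and 0.489 without the 2 farthest libraries. Cldn4, Cldn7 and Ocln passed by rank only, with rho of 0.735, 0.654 and 0.574 (adjusted permutation p = 0.0013, 0.00528 and 0.0167) and r of 0.396, 0.224 and 0.471. The 2 libraries of the sister clones yfp_7160c2 and yfp_7160c5 stood far above the others in Cldn4 and Cldn7. Cldn2, Tjp1 and Cldn23 followed the heart sum by neither measure (r of -0.165, 0.130 and 0.072). The 19 libraries came from 18 clones of 12 parent lines, and the 7 above 4000 CPM were much alike. The permutations took all libraries as independent, so these p-values may be too small. The liver sum, which moved with the heart sum, was not separated from it.

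**Figure D5:**
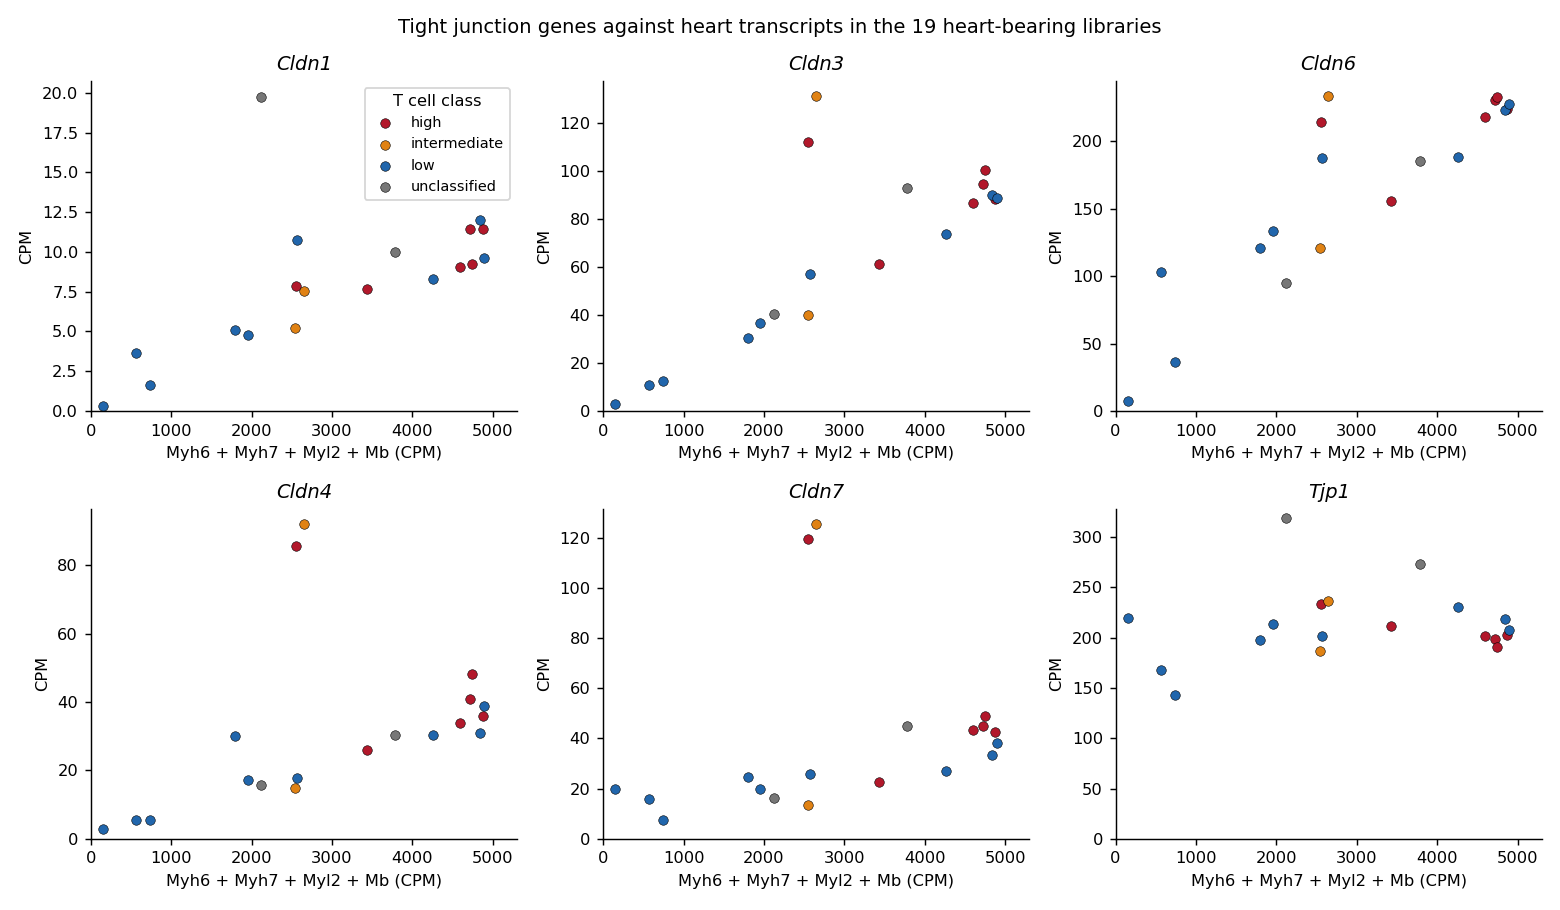
Level of 6 genes (CPM) against the summed level of 4 heart transcripts (CPM) in the 19 heart-bearing libraries, coloured by T cell class. Cldn6 and Cldn3 climb with the heart sum towards a narrow cluster of high and low clones above 4000 CPM, the 2 libraries of yfp_7160c2 and yfp_7160c5 stand out in Cldn4 and Cldn7, and Tjp1 shows no trend.

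Other claudins differed between the kinds of library too. Of 7 tested, 4 were higher and 1 lower in heart-bearing libraries, beside 33.4% and 26.3% of all genes. They included Cldn5, the claudin of blood vessels (3.72 ± 0.38, adjusted p = 7.08e-08), Cldn14 (6.06 ± 0.82, adjusted p = 2.94e-06) and Cldn15 (2.38 ± 0.29, adjusted p = 9.36e-07), named after their values were seen. The 5 endothelial markers, Cldn5 among them, summed to 146 to 227 CPM in heart-bearing and 3.503 to 160 CPM in heart-free libraries of high clones. Of the plaque proteins, 4 were higher and 12 lower of 24 tested, with Tjp3 at -1.04 ± 0.18 and Arhgef2 at -0.40 ± 0.06 (adjusted p = 6.57e-05 and 1.2e-05). The part of other tissues in these differences was not tested.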

How the data were processed

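RNA was extracted from sorted tumour cells with a column kit and sequenced on a NextSeq instrument, per the labels' protocols. The authors deposited raw counts per gene; the submitters' processing notes name STAR, featureCounts and the build mm10, while versions, annotation release and strandedness were not given in the sources used. The totals were 7638130 to 103794674 counts, with a median of 34565903. Where a symbol occurred more than once, its most abundant row was used, and the other rows, 214 in all, were dropped. CPM was taken on the plain library total, and a clone's level is its summed counts over its summed totals. Floors, the levels still allowed where no count was seen, cover counting error only. Values after ± are SDs over clones or SEs from the edgeR fit, and these include the spread between clones or libraries.

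Counts were summed per clone, kept with filterByExpr, scaled by TMM and compared by quasi-likelihood F-tests (edgeR 4.0.16, R 4.3.3), p-values being adjusted over all genes tested at a threshold of 0.05. Heart-bearing libraries held 10 CPM or more of Myh6, Myh7, Myl2 and Mb together. They were compared with heart-free ones per library with the clone as a block. Scripts were tested on simulated data. The log2 offset for correlations was 0.5 CPM. Correlation p-values came from 100000 permutations (scipy 1.17.1). Alternatives were DESeq2 1.42.0, limma 3.58.1, other scaling, no filter, kinds of library, other replicates and clones left out.

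The members and lists were chosen with earlier results of these data known. Named genes were all members, the 3 genes most like each member averaging at least 5 CPM, and in each list the 2 with the smallest p per direction, with Epcam, St14, Grhl2, Ovol2, Zeb1, Zeb2 and Cdh1. Of these, 1 gene is not reported here. Gene models were from GENCODE M21 and promoter windows from RefSeq, both on GRCm38.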

Additional observations from a re-analysis of the deposited data

Results flagged for a closer look

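Of 60 groups of clones, 6 held a clone whose gap to the next was a large part of the group's range. The cut would flag about 1 in 20 groups of independent, normally spread values. These groups shared libraries and held genes that varied together, so that rate is no yardstick for the 6. Clone yfp_7160c2 stood above the other 5 high clones in 4 of them. Over all libraries it had 50.9 CPM of Ocln, against 29.5 to 37.3 CPM in the other high clones. In heart-bearing libraries it had 85.8 CPM of Cldn4, against 26.0 to 48.0 CPM, 119.5 CPM of Cldn7, against 22.8 to 48.9 CPM, and 7.64 CPM of Cldn23, against 1.36 to 3.33 CPM. Clone yfp_2838c3 stood below the other high clones in Cldn6 in heart-bearing libraries, with 155.6 CPM, against 214 to 232 CPM. Among low clones, yfp_6419c4 had 25.3 CPM of Cldn3 in heart-free libraries, against 0.0257 to 8.34 CPM in the other 7.

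Libraries without a class exceeded every low library of the same kind in 5 cases. The heart-bearing library of yfp_6883c1 had 19.8 CPM of Cldn1, against 0.289 to 12.02 CPM in 9 heart-bearing low libraries, and 319 CPM of Tjp1, against 143 to 231 CPM. The heart-bearing library of yfp_6883c4 had 93.0 CPM of Cldn3, against 3.05 to 90.2 CPM, 44.98 CPM of Cldn7, against 7.57 to 38.1 CPM, and 273 CPM of Tjp1 against the same range.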

How the results depend on the processing

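Between high and low clones 0 genes passed in the edgeR fit over all libraries. DESeq2 called 123 genes, single libraries as replicates with heart transcripts as a block 128, and single libraries with the tumour number as a replicate block 8. That number pairs no animals per the labels and coincided with the kind of library, being 1 in 18 of 19 heart-bearing and 2 or more in 19 of 20 heart-free libraries. Leaving out 1 clone gave 0 to 16 genes over all libraries (16 without yfp_2838c3, 1 without yfp_6421c2) and 0 to 37 in heart-free libraries (37 without yfp_2838c3, 1 without yfp_6694c2). This last alternative, and the fit without libraries above 4000 CPM of heart transcripts, were chosen after seeing the data. Between intermediate and low clones 1 gene passed, 0 in heart-free libraries, and 0 to 99 with 1 intermediate clone left out (99 without yfp_6422c5, 0 without yfp_7160c5). No alternative moved the counts of heart-bearing against heart-free or of intermediate against high by over 1.5 times.

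Over 24 alternatives the high minus low log2 difference ran from 1.17 to 3.15 for Cldn7, 0.99 to 3.35 for Cldn3, 1.26 to 2.06 for Cldn4 and 0.56 to 1.41 for Cldn6. That of Cldn1 was -1.01 with tumour number as the block. Between the kinds of library, Cldn23 did not pass without yfp_6555c3 (adjusted p = 0.0615), Cldn4 passed without yfp_6499c3 (0.0435) or yfp_6555c3 (0.0423), and Tjp1 passed with no filter (0.0389) or without yfp_2699c4 (0.0359) or yfp_2838c3 (0.0193), by edgeR. Of the 3 genes most like Cldn6, 0 were among its 20 most like by Pearson correlation, and of those of Cldn3, 1 with 1 value per line. Depth limits Cldn1, with under 10 counts in 18 of 20 heart-free libraries, and the low end of Cldn3, with under 10 counts in 6 of 20.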

Other observations

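Clone yfp_7062c3, which has no class and 1 heart-free library, had 24.8 CPM of Cldn7, 7.12 CPM of Cldn4, 0.161 CPM of Cldn3, 68.2 CPM of Cldn6 and 8.97 CPM of Ocln, beside 338 CPM of Cldn2 and 172 CPM of Tjp1. The heart-bearing library of yfp_6883c1 had 171 CPM of Cldn2, the lowest of the 19 heart-bearing libraries.

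The 3 low clones yfp_6419c1, yfp_6419c4 and yfp_6419c5, of a shared parent line, differed among themselves in heart-free libraries. Cldn6 was at 1.66 CPM in yfp_6419c1, 68.4 CPM in yfp_6419c4 and 43.0 CPM in yfp_6419c5. Cldn3 was at 1.94, 25.3 and 8.34 CPM in the same clones, and Cldn7 at 4.58, 8.67 and 25.8 CPM. Tjp1 was at 316, 265 and 322 CPM, Cldn2 at 425, 294 and 269.0 CPM and Cldn12 at 78.5, 125 and 114 CPM.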
